A study of Homo sapiens with 6 samples.

Results

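Receptor tyrosine kinases are single-pass membrane proteins that bind a growth factor outside the cell, pair up and phosphorylate tyrosines on each other's tails, which then recruit adaptors that feed the RAS/MAPK and PI3K/Akt pathways. In epithelial cancers EGFR, MET and AXL are known for driving growth and motility, and the insulin receptor family is known for feeding PI3K/Akt and protein synthesis. The 10 receptors EGFR, ERBB2, ERBB3, MET, AXL, IGF1R, INSR, FGFR1, PDGFRB and EPHA2 were taken by gene name from a table of 32985 genes, which held all 10, and their level in control cells and their change after NUF2 knockdown were described.

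The cells were 8505C, an established line of anaplastic thyroid cancer (ATC), an undifferentiated carcinoma of the thyroid, grown in RPMI-1640 with 10% fetal bovine serum. NUF2, a subunit of the NDC80 complex that ties kinetochores to microtubules, was knocked down with siRNA in 3 libraries (siNUF2, NUF2 knockdown by genotype label), and 3 libraries came from cells given control siRNA (siCtrl, labelled WT), all labelled 24 h. The model is 1 line and, for the knockdown, 1 siRNA sequence in the study's methods. The labels do not say whether the 3 libraries of a group are separate cultures, so p-values measure the spread between these libraries, which may be technical.

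The libraries held 61257859 to 69755291 counts each. NUF2 had an FPKM (fragment counts divided by transcript length and library depth) of 14.8, 14.5 and 12.2 in siCtrl and of 1.53, 2.05 and 1.56 in siNUF2 libraries, so the targeted gene was low in every library labelled as knockdown. Of the epithelial markers, KRT7, KRT18, KRT8 and KRT19 had a mean of at least 1 FPKM while CDH1 and EPCAM were under 1 in every library. Of the thyroid follicular markers, NKX2-1 and HHEX were above 1 FPKM in every library, whereas TG, SLC5A5, FOXE1 and PAX8 were under 1 in every library. The summed FPKM of 5 fibroblast markers, led by COL3A1, COL1A1 and COL1A2, was 0.465 to 4.91 in siCtrl and 0.907 to 6.27 in siNUF2 libraries, that of 3 endothelial markers (CDH5, PECAM1 and VWF) 1.06 to 2.38 and 0.686 to 3.28, and that of 5 leukocyte markers, led by CD68, LYZ and CD14, 5.72 to 17.0 and 6.29 to 7.82. The highest leukocyte sum was in siCtrl replicate 1, where LYZ, the gene of lysozyme, had 7.47 FPKM. LYZ was at 0.434 FPKM in siNUF2 replicate 1 and at 0 in the other 4 libraries. In the edgeR fit with the replicate block described below, LYZ passed as lower in siNUF2 (adjusted p = 0.00631), a call that rests on siCtrl replicate 1. In the fit without the block 0 of 3 leukocyte markers tested passed, and 0 had an unadjusted p under 0.05. In RNA from whole cultures, fewer cells of a kind and less RNA per cell cannot be told apart.

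On GRCh38 EGFR is at chr7:55019017-55211628 and MET at chr7:116672196-116798377, AXL at chr19:41219223-41261766, ERBB2 at chr17:39687914-39730426, ERBB3 at chr12:56076799-56103505, IGF1R at chr15:98648539-98964530 (all on the plus strand). On the minus strand are INSR at chr19:7112255-7294414, FGFR1 at chr8:38400215-38468834, PDGFRB at chr5:150113839-150155860 and EPHA2 at chr1:16124337-16156069.

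In siCtrl cells AXL, the receptor for the vitamin K-dependent ligand GAS6, was by far the most abundant of the 10. AXL had 164, 200 and 162 FPKM in siCtrl, with a mean of 175 ± 21.7 (SD, n = 3), which was rank 171 of all genes of the table. EPHA2, a receptor for the membrane-bound ephrin-A ligands of neighbouring cells, followed with 44.6, 62.2 and 57.3 FPKM and a mean of 54.7 ± 9.08 (SD, n = 3). The ranges of AXL and EPHA2 did not overlap, and the mean of AXL was 3.21 times that of EPHA2.

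MET, the receptor of hepatocyte growth factor, and EGFR, the receptor of EGF and its relatives, came next at almost the same level. MET had 24.1, 24.5 and 26.9 FPKM (mean 25.2 ± 1.51, SD, n = 3), and EGFR had 22.5, 29.5 and 22.9 FPKM (mean 25.0 ± 3.92, SD, n = 3). Their ranges overlapped, so their order is not set by these libraries.

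FGFR1, a fibroblast growth factor receptor, lay lower, with 8.75, 7.91 and 11.5 FPKM (mean 9.39 ± 1.89, SD, n = 3), below EGFR and above IGF1R without overlap. IGF1R, the receptor of insulin-like growth factors, had 3.97, 5.24 and 5.80 FPKM (mean 5.01 ± 0.937, SD, n = 3). ERBB2, the ligandless partner of the other ERBB receptors, had 4.56, 5.16 and 4.43 FPKM (mean 4.72 ± 0.394, SD, n = 3). The ranges of IGF1R and ERBB2 overlapped.

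INSR, the insulin receptor, and ERBB3, a neuregulin receptor with an impaired kinase that signals through its partners, were near 1 FPKM. INSR had 1.12, 1.51 and 0.895 FPKM (mean 1.18 ± 0.312, SD, n = 3), and ERBB3 had 0.716, 1.81 and 0.945 FPKM (mean 1.16 ± 0.576, SD, n = 3), so that these neighbours overlapped as well. PDGFRB, a platelet-derived growth factor receptor typical of fibroblasts and pericytes, was the lowest, with 0.115, 0.218 and 0.0657 FPKM from 67, 127 and 35 counts. It lay below ERBB3 without overlap.

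**Figure D1:**
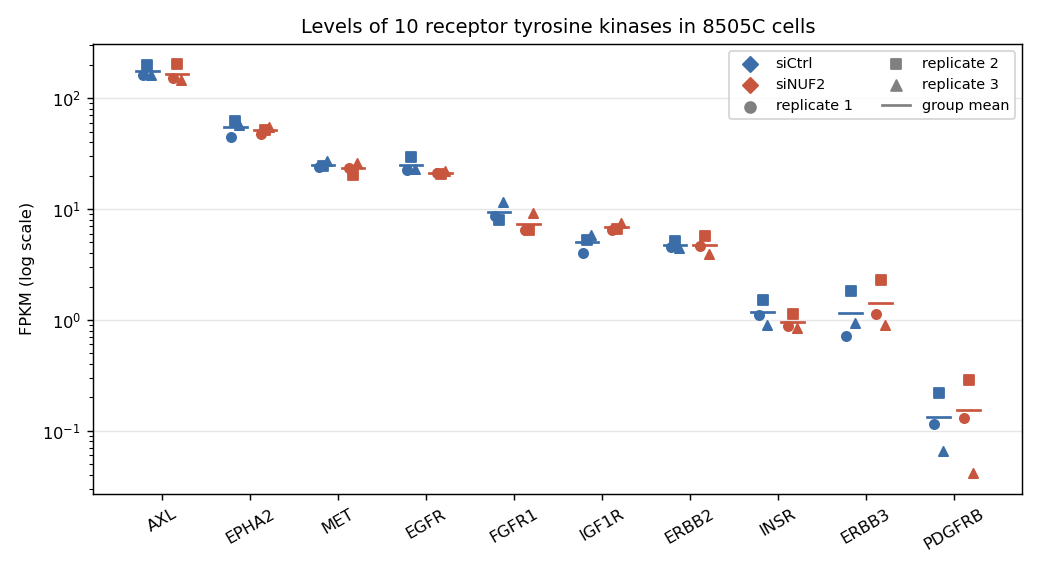
FPKM of the 10 receptors (log axis) in each of the 3 siCtrl (blue) and 3 siNUF2 (red) libraries, ordered by the siCtrl mean. Marker shapes give the replicate number and short lines the group mean. AXL stands highest at a siCtrl mean of 175 FPKM and PDGFRB lowest, and for AXL, INSR, ERBB2, ERBB3 and PDGFRB the square of replicate 2 is the highest point in both groups.

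AXL alone made up 58.1% of the summed mean FPKM of the 10 receptors, EPHA2 18.1%, MET 8.35% and EGFR 8.28%. INSR, ERBB3 and PDGFRB each made up less than 1%. The sum over the 10 was 274, 338 and 293 FPKM in siCtrl and 264, 318 and 272 FPKM in siNUF2 libraries. The siCtrl mean was 302 ± 33.1 and the siNUF2 mean 285 ± 29.5 (SD, n = 3 each), with a two-sided exact permutation p of 0.5, where 3 against 3 libraries cannot give less than 0.1. Within each replicate number the siNUF2 sum was the lower one, with differences of -10.3, -20.0 and -21.0 FPKM (exact paired permutation test, two-sided, chosen after the values were seen, p = 0.25, the smallest that 3 pairs allow). Without siCtrl replicate 2 the difference of the sums turned from -17.1 to 1.24 FPKM. The share of AXL was 59.7%, 59.2% and 55.3% in siCtrl and 57.6%, 63.5% and 54.0% in siNUF2 libraries, and the groups overlapped (exact permutation test, two-sided, p = 1.0).

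Against the rest of the receptor tyrosine kinase family the 10 held most of the message. The list of 10 was chosen with earlier results of these data known, so this share is a description. Of 42 other family members in the table, 10 had a siCtrl mean of at least 1 FPKM and 22 were under 0.1 FPKM. The 10 receptors held 85.0% of the summed siCtrl FPKM of the 52 genes, and AXL 49.4%. The highest of the others were PTK7, a pseudokinase coreceptor of Wnt signalling, with a mean of 9.57 ± 0.613 FPKM (SD, n = 3), EPHB4, an ephrin-B receptor, with 9.18 ± 0.849 (SD, n = 3), and RYK, another Wnt receptor, with 8.95 ± 0.883 (SD, n = 3). These 3 lay close to FGFR1, and INSR and ERBB3 were the lowest of the 19 family members at 1 FPKM or more.

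**Figure D2:**
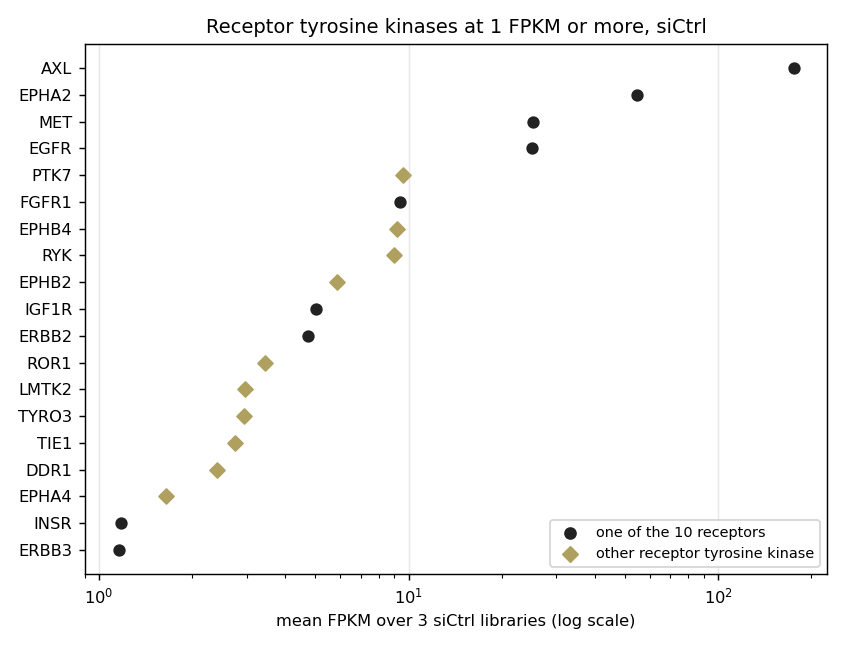
Mean FPKM over the 3 siCtrl libraries (log axis) of the 19 receptor tyrosine kinases at 1 FPKM or more. Circles are receptors of the list of 10 and diamonds are other family members. The top 4 (AXL, EPHA2, MET, EGFR) all belong to the list, which was chosen with earlier results of these data known. PTK7 at 9.57 FPKM is the highest of the others.

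To ask whether NUF2 knockdown altered receptor expression, the counts of all 11725 genes with a mean of at least 1 FPKM were fitted in edgeR (quasi-likelihood test), and p-values were adjusted over all of them after Benjamini and Hochberg. PDGFRB was under that level, and the other 9 receptors were tested. At an adjusted p under 0.05, 0 of 9 receptors passed, where 3.99% of all genes tested did. At an unadjusted p under 0.05 there was 1 receptor of 9, IGF1R, against 18.2% of all genes. The median log2 fold change of the 9 was -0.07, beside 0.01 for all genes tested, with 3 values above 0 and 6 below. With the replicate number as a block, a fit that removes what libraries of the same number share, 2 of 9 receptors passed (IGF1R higher, FGFR1 lower), where 14.5% of all genes did. DESeq2 called 1 of 9 (IGF1R), where it called 8.47% of all genes. With 9 receptors, a single call more or less would carry their share across that of all genes in each of these 3 fits.

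IGF1R had the smallest p of the 9 receptors. Its FPKM was 3.97, 5.24 and 5.80 in siCtrl and 6.51, 6.67 and 7.48 in siNUF2 libraries, from 4468 to 7496 counts. The groups did not overlap, and the siNUF2 mean was 138% of the control mean. A two-sided exact permutation test gave p = 0.1, the smallest that 3 against 3 allows. The log2 fold change of IGF1R was 0.48 (standard error 0.15, 95% interval 0.140 to 0.818), which missed the threshold in edgeR (adjusted p = 0.137). It passed with the replicate block (log2 fold change 0.49, standard error 0.09, adjusted p = 0.0122 in edgeR) and in DESeq2 (adjusted p = 0.0382), and over all alternatives tried the adjusted p ran from 0.0122 to 0.350. Between libraries of the same number, the log2 ratio of siNUF2 to siCtrl was 0.71, 0.35 and 0.37 for numbers 1, 2 and 3.

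INSR, the closest relative of IGF1R, had 0.888, 1.13 and 0.847 FPKM in siNUF2 libraries against 1.12, 1.51 and 0.895 in siCtrl, and the groups overlapped. Its log2 fold change was -0.28 (standard error 0.23, 95% interval -0.803 to 0.249, adjusted p = 0.602 in edgeR), and -0.26 with the block (adjusted p = 0.266 in edgeR). The FPKM ratio of IGF1R to INSR was 4.31 in siCtrl and 7.26 in siNUF2 cells as geometric means. On the log2 scale this ratio was 1.83, 1.79 and 2.70 in siCtrl and 2.87, 2.56 and 3.14 in siNUF2 libraries, and siNUF2 replicate 2 lay below siCtrl replicate 3 (exact permutation test, two-sided, p = 0.2). Within each number the ratio was higher in siNUF2, by 1.04, 0.77 and 0.44 (exact paired permutation test, p = 0.25, again the smallest possible).

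FGFR1 showed the opposite direction, with 6.45, 6.48 and 9.29 FPKM in siNUF2 libraries against 8.75, 7.91 and 11.5 in siCtrl. The ranges of the groups overlapped, since replicate 3 was the highest in both, but within each number the siNUF2 library was the lower one, with log2 ratios of -0.44, -0.29 and -0.31. For EGFR, INSR and MET as well, the siNUF2 library was the lower one within each number. The log2 fold change of FGFR1 was -0.32 (standard error 0.19, 95% interval -0.758 to 0.113, adjusted p = 0.432 in edgeR) and kept that size with the block (-0.33, standard error 0.07, adjusted p = 0.0258 in edgeR). FGFR1 overlaps LETM2, which lies on the other strand and had 6945 counts beside 57009 of FGFR1 over the 6 libraries, and the strand setting of the counting is not given in the sources used here.

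EGFR was lower in every siNUF2 library, with 21.3, 20.8 and 21.8 FPKM against 22.5, 29.5 and 22.9 in siCtrl. The groups did not overlap, but they nearly touched (22.5 against 21.8 FPKM), and siCtrl replicate 2 stood alone at the top. The log2 fold change was -0.21 (standard error 0.12, 95% interval -0.482 to 0.0642, adjusted p = 0.416 in edgeR), and without siCtrl replicate 2 it was -0.07. With the block the adjusted p was 0.199 in edgeR. EGFR and IGF1R were the 2 of 9 receptors whose groups did not overlap in FPKM, where the groups did not overlap for 23.9% of all genes tested (10.5% with siNUF2 higher, 13.4% with siNUF2 lower).

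For the 3 most abundant receptors besides EGFR the groups overlapped. AXL had 152, 202 and 147 FPKM in siNUF2 libraries, EPHA2 had 47.5, 52.3 and 54.7, and MET had 23.5, 20.4 and 25.9. The log2 fold changes from edgeR were -0.05 for AXL (95% interval -0.395 to 0.298, adjusted p = 0.910), -0.07 for EPHA2 (-0.377 to 0.246, adjusted p = 0.859) and -0.09 for MET (-0.347 to 0.158, adjusted p = 0.724). With the block the intervals narrowed to between -0.201 and 0.0838 for AXL, between -0.236 and 0.127 for EPHA2 and between -0.266 and 0.0686 for MET. The sign of AXL turned when siCtrl replicate 2, siNUF2 replicate 1 or siNUF2 replicate 3 was left out, and that of EPHA2 without siCtrl replicate 2.

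ERBB2 had 4.62, 5.76 and 3.91 FPKM in siNUF2 libraries against 4.56, 5.16 and 4.43 in siCtrl, with overlap. Its log2 fold change was 0.04 (standard error 0.15, 95% interval -0.313 to 0.384, adjusted p = 0.935 in edgeR). ERBB2 overlaps MIEN1 and PGAP3, both on the other strand, and MIEN1 had 13198 counts beside 22907 of ERBB2 over the 6 libraries. ERBB3, the partner of ERBB2, had 1.12, 2.29 and 0.890 FPKM in siNUF2 libraries against 0.716, 1.81 and 0.945 in siCtrl. The log2 fold change of ERBB3 was 0.33 with the widest interval of the 9 (-0.668 to 1.33, adjusted p = 0.762 in edgeR), and it turned to -0.19 without siNUF2 replicate 2.

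PDGFRB had 0.131, 0.286 and 0.0412 FPKM in siNUF2 libraries, from 74, 164 and 23 counts, against 0.115, 0.218 and 0.0657 in siCtrl. In edgeR without a filter on low values the change was 0.23 on the log2 scale with a standard error of 0.69 (adjusted p = 0.939). The siCtrl SD of PDGFRB was 58.5% of the mean, and a change was not detected with this spread between libraries. The summed fibroblast markers were lowest in replicate 1 of both groups, whereas PDGFRB was lowest in replicate 3 of both. The summed endothelial markers were highest in replicate 2 of both groups, as were PDGFRB and ERBB3. The part of either marker list in these levels was not tested.

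**Figure D3:**
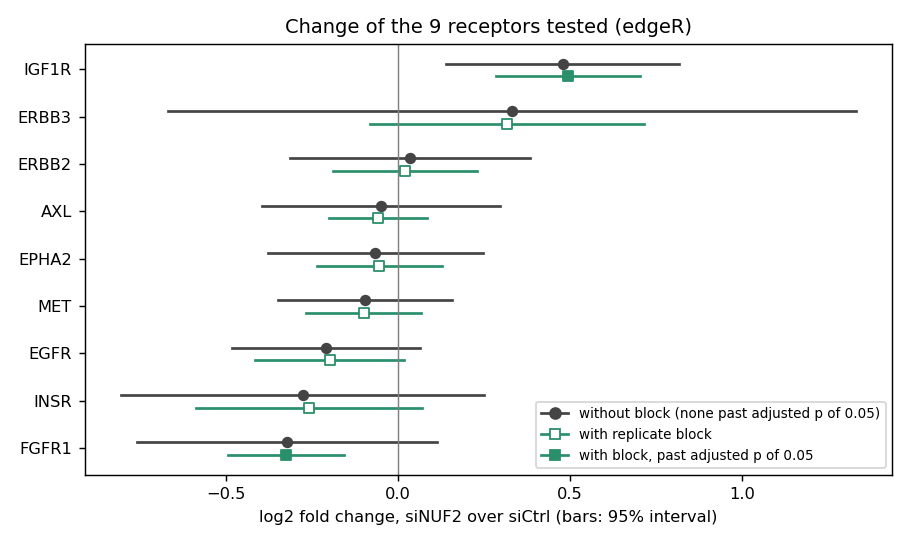
Log2 fold change of siNUF2 over siCtrl for the 9 receptors tested in edgeR, with 95% intervals. Grey circles are the fit without a block, green squares the fit with the replicate number as a block, filled where the adjusted p was under 0.05 (IGF1R at 0.49 and FGFR1 at -0.33). The intervals without the block cross 0 for every receptor except IGF1R.

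Some receptors differed between replicate numbers. In 7 of 9 tested receptors the same number was the highest library in both groups, where this held for 53.5% of all genes tested. Replicate 2 was that library for AXL, ERBB2, ERBB3 and INSR, and replicate 3 for MET, IGF1R and FGFR1. In a test of the replicate number in the edgeR fit with the block, chosen after the values were seen, 3 of 9 receptors passed (ERBB3 with an adjusted p of 0.0216, FGFR1 with 0.0217 and AXL with 0.0304), where 7.60% of all genes did. For ERBB3, replicate 2 had 1.81 and 2.29 FPKM, and the other 4 libraries had 0.716 to 1.12. The labels do not say what a number shares.

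**Figure D4:**
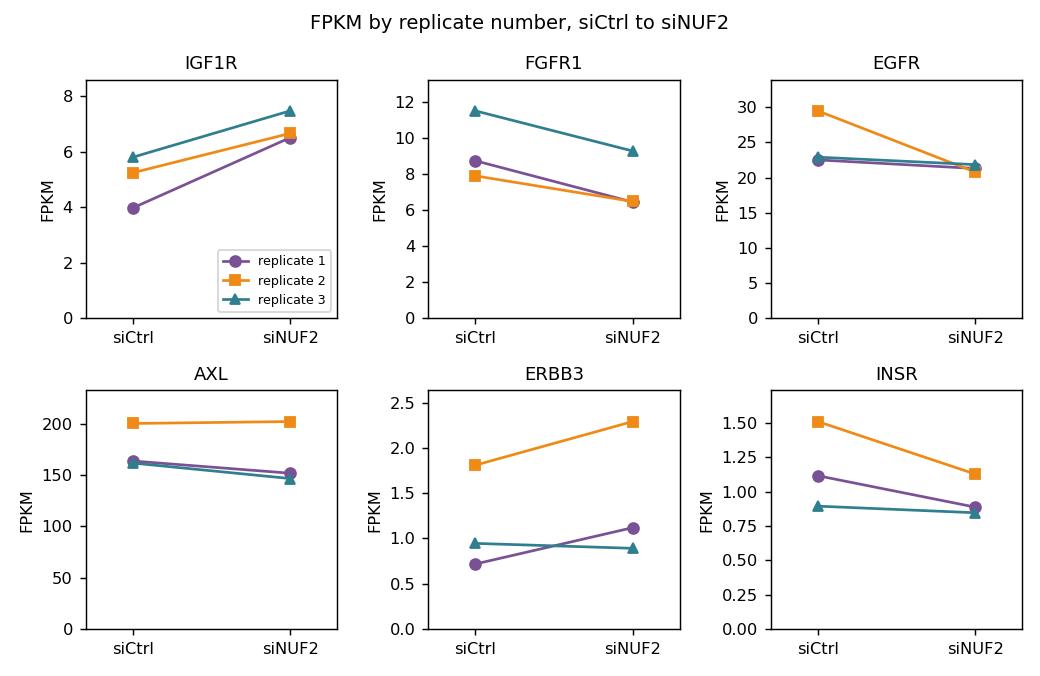
FPKM of 6 receptors in siCtrl and siNUF2 libraries, with a line joining libraries of the same replicate number and the axis starting at 0. All 3 lines rise for IGF1R and fall for FGFR1, EGFR and INSR. In AXL and ERBB3 the line of replicate 2 (200 to 202 FPKM and 1.81 to 2.29 FPKM) runs above the others.

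Genes with the most similar profiles were named for AXL, the most abundant receptor, and for IGF1R, the one with the smallest p, by Pearson's r of log2 counts, scaled to library size, over the 6 libraries, as a description. For AXL they were NANOS1 (r = 0.998), PCDH1 (0.997) and SEMA3B (0.996), and 101 of 11725 genes reached 0.95. For IGF1R they were MAPK8 (0.989), ZNF652 (0.988) and TMED8 (0.986), and 42 genes reached 0.95.

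The 3′ UTRs of the receptors were searched for TATGGAA, the 7-base word complementary to bases 2 to 8 of the siRNA's antisense strand, because an siRNA can act on other messages through these bases. Only the strand of the mRNA was searched, in the longest 3′ UTR of each gene in GENCODE release 44. All 10 receptors had a 3′ UTR, and 2 of them, EGFR and ERBB3, held the word once each, where 16.1% of 10173 tested genes with a 3′ UTR did. The stretches below show the word in capitals with 10 bases on either side, for these receptors and for every gene named in the next paragraphs that passed in edgeR, with or without the block, and holds the word. That choice uses the calls, so the directions of the genes shown are no result. Over all receptors and list genes tested, 21 held the word, and 13 of these passed in neither fit, among them PIK3CB with 3 copies, CRK, PIK3CA and FGF2. With the block 1 of the 21 passed as higher (IGF2R) and 7 as lower. Of the 88 without the word, 11 passed as higher and 7 as lower. Over all genes tested with the block, 6.64% passed as higher and 7.91% as lower. The lists were chosen with earlier results of these data known. Genes with and without the word were not matched for 3′ UTR length. The part of the word in these changes was not tested. Each word lies in the last exon, in the 3′ UTR.
EGFR: ttgtgttactTATGGAAgatagttttc
ERBB3: gagataagccTATGGAAacatagcaag
SOS1: cagtttagaaTATGGAAagaccgacct
SOS2: tgcctattgtTATGGAAaacagttaat
ADAM10: ttctgtctgaTATGGAAaagaaaagct
CD44, first copy: ccaaaaacaaTATGGAAgtgccttttg
CD44, second copy: gcctgaagttTATGGAAtaagatgtat
NRP1, first copy: tgttctttcaTATGGAAtgtattttca
NRP1, second copy: attttttcttTATGGAAatctataaaa
SPRED1, first copy: tggcaagcaaTATGGAAtcttgcctgg
SPRED1, second copy: tgaatccctaTATGGAAattttctttt
IGF2R: gtatagccatTATGGAAaacaggaagt

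On GRCh38 the word is at chr7:55206685-55206691 for EGFR (plus strand, exon 28 of 28), at chr12:56102934-56102940 for ERBB3 (plus strand, exon 28 of 28) and at chr2:38985624-38985630 for SOS1 (minus strand, exon 23 of 23). For SOS2 it is at chr14:50117619-50117625 (minus strand, exon 23 of 23), for ADAM10 at chr15:58596543-58596549 (minus strand, exon 16 of 16), and for CD44 at chr11:35230431-35230437 and chr11:35231656-35231662 (plus strand, exon 9 of 9). For NRP1 it is at chr10:33179053-33179059 and chr10:33177798-33177804 (minus strand, exon 18 of 18), for SPRED1 at chr15:38351748-38351754 and chr15:38354150-38354156 (plus strand, exon 7 of 7), and for IGF2R at chr6:160110504-160110510 (plus strand, exon 48 of 48). EGFR, which holds the word, had a log2 fold change of -0.21 and ERBB3, which also holds it, one of 0.33, neither past the threshold in edgeR. IGF1R held 0 copies of the 7-base word and 8 of its 6-base core ATGGAA in a 3′ UTR of 7088 bases, where 46.2% of genes held the core at least once. FGFR1, AXL, EPHA2, ERBB2 and PDGFRB held neither. A match of letters is a description and not a site of action.

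Among the ligands of these receptors, HBEGF, a membrane-anchored ligand of EGFR that is released by shedding, fell. It had 20.6, 26.8 and 27.7 FPKM in siCtrl and 12.5, 12.1 and 14.3 in siNUF2 libraries, without overlap, and 51.9% of the control mean was left. On the log2 scale the change was -0.93 with a standard error of 0.14 (edgeR, adjusted p = 0.0117), and the adjusted p was 0.0639 without siNUF2 replicate 1. HBEGF was the 1 of 14 ligand genes tested, of 33 listed, that passed, where 2.46% of all genes passed as lower. As higher 0 ligands passed, beside 1.53% of all genes. The median log2 fold change of the 14 was -0.02. HBEGF held 0 copies of the 7-base word and 1 of its core.

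With the block 2 ligands passed, both lower, where 7.91% of all genes did. The further one was PDGFA, a platelet-derived growth factor chain, which had 3.73, 4.34 and 3.80 FPKM in siCtrl and 1.97, 2.35 and 3.11 in siNUF2 libraries (adjusted p = 0.129 in edgeR, 0.0343 with the block). DESeq2 called 2 ligands, HBEGF and PDGFA (adjusted p = 0.0264 for PDGFA), where it called 8.47% of all genes. PROS1, a vitamin K-dependent plasma protein that binds the AXL relatives TYRO3 and MERTK, had siCtrl and siNUF2 means of 21.8 ± 1.14 and 24.6 ± 3.39 FPKM (SD, n = 3 each). AREG, an EGFR ligand, had means of 21.1 ± 15.1 and 24.7 ± 15.6 FPKM (SD, n = 3 each). Ligands named after their values were seen were low in these cells. GAS6, the ligand of AXL, had at most 0.916 FPKM, HGF, the ligand of MET, had 0.101 to 0.517 FPKM, and EGF and IGF2 were under 0.04 FPKM in every library.

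Of the insulin-like growth factor binding proteins and IGF2R, 6 of 8 genes were tested. In edgeR without the block 0 passed (3.99% of all genes did) and 3 had an unadjusted p under 0.05 (18.2% of all genes). DESeq2 called 1 (IGF2R), where it called 8.47% of all genes. IGFBP1, named after its values were seen, was among those 3, with 7.30, 4.85 and 5.00 FPKM in siCtrl and 2.94, 3.88 and 3.61 in siNUF2 libraries, without overlap and lower (log2 fold change -0.70, adjusted p = 0.159 in edgeR, 0.0845 with the block). With the block 3 rose and 0 fell, where 6.64% of all genes rose and 7.91% fell. IGFBP4, which binds insulin-like growth factors outside the cell, had 86.0, 73.3 and 156 FPKM in siCtrl and 156, 140 and 212 in siNUF2 libraries (log2 fold change 0.71, adjusted p = 0.241 in edgeR, 0.00376 with the block). IGFBP3, the main binding protein in serum, had 33.7, 15.1 and 25.9 FPKM in siCtrl and 68.5, 23.6 and 35.0 in siNUF2 libraries (log2 fold change 0.78, adjusted p = 0.361 in edgeR, 0.00642 with the block). In both genes the groups overlapped and each siNUF2 library was above the siCtrl library of its number. IGF2R, which takes up and clears IGF2, had 8.98, 8.44 and 8.47 FPKM in siCtrl and 11.9, 10.3 and 10.1 in siNUF2 libraries (log2 fold change 0.34, adjusted p = 0.107 in edgeR, 0.0186 with the block), without overlap. IGFBP7 had means of 59.4 ± 4.13 and 63.3 ± 10.6 FPKM (SD, n = 3 each).

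Among proteins that process receptors and ligands or act as coreceptors, 18 of 22 were tested, 1 rose and 1 fell, where 1.53% of all genes rose and 2.46% fell. ADAM10, a metalloproteinase that sheds ligands and receptors, had 6.78, 6.96 and 6.74 FPKM in siCtrl and 4.48, 4.98 and 4.66 in siNUF2 libraries, without overlap. On the log2 scale the change was -0.52 with a standard error of 0.09 (edgeR, adjusted p = 0.0206), and the adjusted p reached 0.0932 with 1 library left out and stayed under 0.05 only without siNUF2 replicate 2. ADAM15, a related metalloproteinase, had 10.9, 11.8 and 11.7 FPKM in siCtrl and 15.1, 17.2 and 15.4 in siNUF2 libraries, without overlap (log2 fold change 0.49, standard error 0.10, adjusted p = 0.0349 in edgeR), and its adjusted p was 0.0766 to 0.134 with any 1 library left out.

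With the block 2 of these 18 rose and 3 fell, where 6.64% of all genes rose and 7.91% fell. CD44, a hyaluronan receptor that also acts as a coreceptor of MET, had 70.0, 68.2 and 91.5 FPKM in siCtrl and 37.0, 40.7 and 55.0 in siNUF2 libraries, without overlap (log2 fold change -0.77, standard error 0.18, adjusted p = 0.0551 in edgeR, 9.01e-04 with the block). CD44 also passed in edgeR with a filter at a mean of 5 FPKM (adjusted p = 0.0448) and without siNUF2 replicate 3 (0.0324). DESeq2 called 3 of the 18, ADAM10, ADAM15 and CD44 (adjusted p = 3.11e-04 for CD44), where it called 8.47% of all genes. NRP1, a semaphorin and growth factor coreceptor, was at -0.67 on the log2 scale (adjusted p = 0.318 in edgeR, 0.0141 with the block), and SDC4, a heparan sulphate coreceptor of fibroblast growth factors, one of 0.31 (adjusted p = 0.547 in edgeR, 0.0270 with the block). TIMP1, an inhibitor of metalloproteinases, had means of 130 ± 15.7 and 117 ± 14.1 FPKM (SD, n = 3 each), and ITGB1, the integrin beta 1 chain, had 74.5 ± 14.0 and 86.8 ± 14.1 (SD, n = 3 each).

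All 29 adaptors and proximal transducers were tested, and 1 rose and 1 fell, beside 1.53% and 2.46% of all genes. STAT3, a transcription factor activated by receptors and by interleukin 6 signalling, had 7.33, 7.52 and 7.88 FPKM in siCtrl and 12.4, 9.74 and 11.8 in siNUF2 libraries, without overlap (log2 fold change 0.60, standard error 0.11, adjusted p = 0.0255 in edgeR). Its adjusted p was 0.0259 to 0.102 with 1 library left out, under 0.05 only without siNUF2 replicate 2. SOS2, an exchange factor that loads RAS with GTP, had 3.75, 3.17 and 3.25 FPKM in siCtrl and 2.20, 1.92 and 2.10 in siNUF2 libraries, without overlap (log2 fold change -0.69, standard error 0.13, adjusted p = 0.0297 in edgeR). Its adjusted p was 0.0651 to 0.120 with any 1 library left out.

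With the block 2 adaptors rose and 3 fell, 5 of 29 in all, a share near the 14.5% of all genes. PTPN11, the SHP2 phosphatase that couples receptors to RAS, had 16.9, 19.5 and 18.7 FPKM in siCtrl and 25.7, 21.5 and 25.1 in siNUF2 libraries (adjusted p = 0.0774 in edgeR, 0.0266 with the block). SOS1, the relative of SOS2, had 3.72, 4.05 and 3.72 FPKM in siCtrl and 2.83, 2.44 and 3.07 in siNUF2 libraries (adjusted p = 0.102 in edgeR, 0.0402 with the block). CRKL, an SH2 and SH3 adaptor, was at -0.33 on the log2 scale (adjusted p = 0.124 in edgeR, 0.0310 with the block). DESeq2 called 4 of the 29, where it called 8.47% of all genes. These were STAT3, SOS2, PTPN11 (adjusted p = 0.0157) and SOS1 (0.0315). The most abundant of the list in siCtrl cells were HRAS (40.7 ± 6.79 FPKM), CRK (31.3 ± 2.74) and the SHC1 adaptor (29.6 ± 1.10; SD, n = 3 each), none of which passed in either fit.

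Of the negative regulators of receptors, 23 of 26 were tested and 0 passed in edgeR without the block (3.99% of all genes did). Of the 23, 9 had an unadjusted p under 0.05 (18.2% of all genes did). DESeq2 called 3 (SPRED1, SOCS5 and GRB10), where it called 8.47% of all genes. With the block 4 rose and 5 fell, beside 6.64% and 7.91% of all genes. GRB10, an adaptor that restrains the insulin and IGF1 receptors, had 3.94, 4.26 and 4.89 FPKM in siCtrl and 5.62, 5.70 and 6.83 in siNUF2 libraries, without overlap (log2 fold change 0.49, adjusted p = 0.0786 in edgeR, 0.00552 with the block). SPRED1, an inhibitor of RAS activation whose 3′ UTR holds the 7-base word 2 times, had 9.36, 10.2 and 10.2 FPKM in siCtrl and 6.57, 7.31 and 8.13 in siNUF2 libraries, without overlap (log2 fold change -0.41, adjusted p = 0.0888 in edgeR, 0.0119 with the block). SOCS5, a suppressor of cytokine and EGFR signalling, was at -0.63 on the log2 scale (adjusted p = 0.146 in edgeR, 0.0135 with the block), and PTPRJ, a receptor phosphatase, one of -0.44 (adjusted p = 0.371 in edgeR, 0.0143 with the block).

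ERRFI1, a feedback inhibitor that binds the EGFR kinase, was the most abundant negative regulator, with 30.5, 54.0 and 47.3 FPKM in siCtrl and 30.2, 26.9 and 34.3 in siNUF2 libraries. Its groups overlapped through siCtrl replicate 1 (log2 fold change -0.51, adjusted p = 0.236 in edgeR, 0.0902 with the block). PTPN1, a phosphatase of the insulin receptor, had means of 37.7 ± 2.69 and 33.8 ± 3.05 FPKM, and PTPRF, another receptor phosphatase, 25.4 ± 3.85 and 30.2 ± 4.34 FPKM (SD, n = 3 each). Of the 10 other receptor tyrosine kinases tested, 0 passed in edgeR with or without the block or in DESeq2, and 0 had an unadjusted p under 0.05. Over all genes these shares were 3.99% without the block, 14.5% with it, 8.47% in DESeq2 and 18.2% at an unadjusted p. With 10 genes, 0 calls do not set this list apart from all genes. The log2 fold changes of the 10 ran from -0.22 to 0.34.

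**Figure D5:**
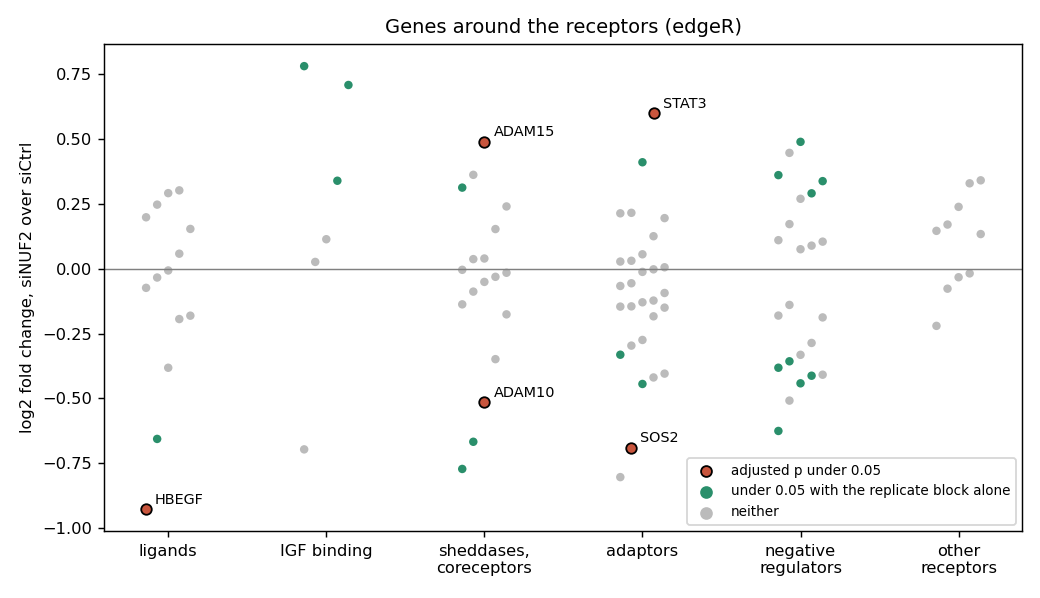
Log2 fold change of siNUF2 over siCtrl (edgeR) for the tested genes of 6 lists around the receptors, 1 point a gene. Red points passed an adjusted p of 0.05 without the block (HBEGF, ADAM10, ADAM15, SOS2 and STAT3). Green points passed in edgeR with the replicate block but not without it, and grey points passed in neither edgeR fit.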

How the data were processed

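Poly(A) RNA of 8505C cells was sequenced in 6 libraries, 3 siCtrl and 3 siNUF2, grouped by the sample titles. Per the study's methods, the authors used fastp for read quality, HISAT2 for alignment (GRCh38) and StringTie for quantification. Versions, annotation release, strand setting and the tool that made the counts are not given in the sources used here. The deposited values are FPKM (corrected for length and depth) and whole-number counts per gene without normalization. The columns named KD were taken as siNUF2 from the genotype label and the number in the title.

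Genes with a mean of at least 1 FPKM (11725) were tested on counts with edgeR 4.0.16 in R 4.3.3 (TMM, quasi-likelihood test, Benjamini-Hochberg adjustment over all of them). Alternatives were DESeq2 1.42.0, limma 3.58.1 on log2(FPKM + 1) and log2(FPKM + 0.1), an F-test on log2(FPKM + 1), other filters and scalings, each library left out, and the replicate number as a block. The study's methods name an F-test of nested linear models, with a cut on fold change and no adjustment of P named. The F-test here was adjusted and had no such cut, so its count is not the study's. The numbers pair the libraries by the data: deviations from the group means correlated at 0.344 to 0.446 between libraries of the same number and at -0.263 to -0.141 between others. Deviations cancel out within a group, so the negative values come with the positive ones and are no separate evidence of pairing. No 2 replicates were the same library (chi-square over its degrees of freedom, 60.9 to 86.8). On simulated counts of 11725 genes for siNUF2 against siCtrl, edgeR recovered 63 of 108 genes changed by 1 on the log2 scale and 92 of 92 changed by 2, with 8 false calls. The simulation gave every gene the same dispersion (0.0452) and no effect of the replicate number, unlike the data. It held no changes smaller than 1, so recovery at the size of the receptor changes was not measured.

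The 95% intervals come from the quasi-likelihood standard errors and cover the spread between libraries. The 3′ UTRs came from GENCODE release 44 (longest of at least 50 bases with an annotated stop codon), matched by gene ID for 86.8% of the tested genes. The members and lists were chosen with earlier results of these data known. Every member is named, as are NUF2 and, of each other list, genes past the adjusted p (up to 6, then up to 4 more with the block) and the 3 highest in siCtrl. Protein sequences were not used here.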

Additional observations from a re-analysis of the deposited data

How the results depend on the processing

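The number of receptors past an adjusted p of 0.05 was 0 of 9 in edgeR, 1 in DESeq2 (IGF1R) and 2 with the replicate block (IGF1R and FGFR1), and it was 0 in each of the other alternatives, every library left out in turn included. A filter at a mean of 5 FPKM left ERBB2, ERBB3 and INSR out of the test. The number of all genes called, 468, was 972 in DESeq2, 188 without a filter, 78 in the F-test and 1705 with the replicate block. Unlike the study's calls, the F-test was adjusted and had no cut on fold change. With 1 of the 6 libraries left out the number of genes called was 124 to 251 (165, 205 and 176 without siCtrl replicate 1, 2 or 3, and 124, 250 and 251 without siNUF2 replicate 1, 2 or 3, where fewer libraries enter the fit). For the difference of the summed receptor FPKM, -17.1, the values ran from -34.0 to 1.24 with 1 library left out, the positive value without siCtrl replicate 2. The order of the 10 receptors in siCtrl cells kept 6 to 10 places with 1 siCtrl library left out, 6 of them without replicate 1 or replicate 3. With 1 library left out the log2 fold change ran from -0.13 to 0.16 for ERBB2, from -0.19 to 0.80 for ERBB3, from -0.219 to 0.0565 for AXL and from -0.193 to 0.035 for EPHA2, and limma on log2(FPKM + 0.1) gave ERBB2 a value of -3.92e-04. With 1 library left out the sign also turned for AREG, FGF2, EPHB4, IGFBP7 and CRK among the genes named around the receptors, none of them called. ADAM15 and SOS2 lost the threshold with any 1 library left out, STAT3 and ADAM10 in 5 of the 6 such fits and HBEGF in 1. These 5 genes apart from HBEGF also lost it without a filter, STAT3 and ADAM15 in both limma fits, and all but ADAM10 in the F-test. The replicate block changed no call in the lists beyond those counted beside the results, where some negative regulators called with it are not named. The cause of these differences was not tested. PDGFRB is limited by its spread between libraries, with 23 to 164 counts a library and a siCtrl SD of 58.5% of the mean.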

Other observations

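AREG and FGF2, ligands of EGFR and of the fibroblast growth factor receptors, were chosen after their values were seen. AREG had 12.3, 12.4 and 38.5 FPKM in siCtrl and 18.5, 13.2 and 42.4 in siNUF2 libraries, and FGF2 had 8.39, 6.18 and 18.2 FPKM in siCtrl and 7.84, 6.02 and 19.8 in siNUF2 libraries. Replicate 3 was the highest library in both groups for both ligands, as it was for FGFR1, MET and IGF1R. For EGFR the highest library was replicate 2 in siCtrl and replicate 3 in siNUF2. The same number was highest in both groups for 53.5% of all genes tested. In the edgeR fit with the block, the adjusted p of the replicate number was 0.00168 for AREG and 4.92e-04 for FGF2.

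EPHA4, a receptor of ephrins, was lowest in replicate 3 of both groups, with 1.84, 2.10 and 0.998 FPKM in siCtrl and 2.79, 2.21 and 1.17 in siNUF2 libraries (adjusted p of the replicate number 0.0242 in edgeR).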
